A study of Mus musculus with 13 samples.

Results

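The 6 genes described here, Egf, Tgfa, Wnt3, Wnt9b, Wnt11 and Bst1, encode factors named for the Paneth cell niche, and they were found by symbol among the 16204 genes of 13 single-cell libraries of mouse small intestine. All 6 were listed, and none was used to group the cells. The mice carried Lgr5-CreERT2 on C57Bl6/J and a Rosa26LSL-YFP reporter, so tamoxifen marks Lgr5-expressing stem cells and whatever descends from them (traced cells), and every group shared this genotype. Traced CD24+ cells were collected after 8 weeks (3 libraries) and after 3 weeks (1), and traced cells whose labels name no CD24 gate after 8 weeks (1) and after 5 days (5). Non-traced CD24+ cells served as controls at 8 weeks (2) and, by its label, at 3 weeks (1). A combined table names its only 2 sets of 3-week cells as YFP, so the label of that last library is in doubt. CD24 is a surface protein used to gate the sort, and non-traced cells are those without the YFP mark. Since the Cre is driven by Lgr5, the mark depends on expression from that promoter.

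Paneth cells lie between the Lgr5+ stem cells at the crypt base and are known in mouse to supply them with EGF, Wnt3 and Notch ligands. EGF and TGF-alpha are ligands of the EGF receptor, while Wnt proteins bind Frizzled receptors with Lrp5 or Lrp6 and stabilise beta-catenin. Bst1 is an ectoenzyme at the cell surface that makes cyclic ADP-ribose from NAD, and in mouse it has been described as a Paneth cell signal to stem cells during calorie restriction.

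CEL-seq, the method used, counts molecular barcodes at the 3' ends of transcripts. Of 1248 cell barcodes, 892 held at least 3000 transcripts without spike-in RNA and were kept. The libraries held 421675 to 1385266 transcripts, with library medians of 5412 to 14458 per kept cell. Clusters named from marker genes gave 80 Paneth-like cells, 102 enteroendocrine-like, 83 goblet-like, 141 tuft-like, 155 stem-like, 233 proliferating-like and 30 enterocyte-like cells, and 68 cells stayed unnamed. The 3 Paneth-like clusters each had 24 Paneth markers raised, and they followed the groups: 1 held 30 of the 31 8-week traced CD24+ cells, another 25 of the 26 8-week non-traced cells, and the third 20 of the 21 5-day cells. Each gene's library mean was subtracted before clustering, and libraries differ in their cell types. The part of this in the split of the Paneth-like cells was not tested. In Paneth-like cells 9 of 11 leukocyte markers (Ptprc among them), 6 of 9 stromal markers (Col1a1 among them) and 3 of 4 endothelial markers (Pecam1 among them) had 0 transcripts. The others held Lyz2 at 98 of its 100 transcripts, Egfl7 at 3, Cd68 and Pdgfrb at 2 each, and Vim and Sparc at 1 each. The labels do not say whether libraries came from different mice, so p-values measure the spread between libraries, which may be technical. Xist, transcribed from the inactive X chromosome, stood at 0.811 to 1.74 transcripts per 10000 in the 8 later libraries and at 0 to 0.0135 in the 5-day libraries, while the Y-linked Ddx3y stood at 0 in the later libraries and at 0.197 to 0.424 in the 5-day libraries. In Paneth-like cells, time therefore cannot be told apart from sex or from the CD24 gate.

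The 6 genes lie on 5 chromosomes of GRCm38. Wnt3 (chromosome 11, 103774150 to 103817957, plus strand) and Wnt9b (chromosome 11, 103727364 to 103749821, minus strand) are divergent neighbours whose annotated starts are 24329 bases apart. Egf lies on chromosome 3 (129677565 to 129755316, minus strand), Tgfa on chromosome 6 (86195223 to 86275719, plus strand), Wnt11 on chromosome 7 (98835112 to 98855195, plus strand) and Bst1 on chromosome 5 (43818885 to 43843986, plus strand). All are protein-coding in GENCODE. Promoter sequences from RefSeq (GRCm38.p6), 250 bases before to 50 after a gene's start, matched 5 of the 6 members. Those of Wnt3 and Egf are shown because both genes were highest in Paneth-like cells, and that of Wnt9b because it is the neighbour of Wnt3 with another pattern. Capitals mark CTTTGT or CTTTGA on either strand, cores that TCF and LEF factors, the DNA-binding partners of beta-catenin, are known to bind.
Wnt3: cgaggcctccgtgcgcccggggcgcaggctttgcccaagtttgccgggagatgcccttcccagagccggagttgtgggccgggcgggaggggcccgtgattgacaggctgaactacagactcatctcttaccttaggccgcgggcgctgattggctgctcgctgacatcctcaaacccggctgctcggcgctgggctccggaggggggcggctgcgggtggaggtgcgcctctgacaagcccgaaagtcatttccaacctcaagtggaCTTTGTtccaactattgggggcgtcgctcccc
Wnt9b: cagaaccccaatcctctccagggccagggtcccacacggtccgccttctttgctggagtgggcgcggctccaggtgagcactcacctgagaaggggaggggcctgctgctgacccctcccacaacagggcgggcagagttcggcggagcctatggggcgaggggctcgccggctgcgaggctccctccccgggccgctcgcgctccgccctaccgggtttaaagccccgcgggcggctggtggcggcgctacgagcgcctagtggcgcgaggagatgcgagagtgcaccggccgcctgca
Egf: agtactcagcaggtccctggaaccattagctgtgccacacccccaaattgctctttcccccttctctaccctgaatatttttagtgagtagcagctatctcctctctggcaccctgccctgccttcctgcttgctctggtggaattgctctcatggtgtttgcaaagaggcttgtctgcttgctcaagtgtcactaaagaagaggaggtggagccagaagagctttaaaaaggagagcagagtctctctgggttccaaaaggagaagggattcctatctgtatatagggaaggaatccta
These windows are chr11:103773925-103774224 on the plus strand, chr11:103749772-103750071 on the minus strand and chr3:129755273-129755572 on the minus strand. The Wnt3 window held 1 such match and the Wnt9b and Egf windows held 0, while 31.2% of the 32851 promoter windows of that length held at least 1. None of the 3 windows held the E-box letters CAGCTG or CAGATG, which 16.3% and 17.2% of all windows held.

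Wnt3 was the most often counted member, and 234 of its 338 transcripts in kept cells (69.2%) came from Paneth-like cells, which held 15.4% of all transcripts. Its pooled level in Paneth-like cells was 1.54 transcripts per 10000 (95% exact Poisson interval 1.35 to 1.75, counting error only). The next levels were 0.687 (0.512 to 0.904, 51 transcripts) in enteroendocrine-like cells and 0.292 (0.196 to 0.42, 29 transcripts) in goblet-like cells. These 3 intervals did not overlap. Tuft-like cells at 0.0733 and stem-like cells at 0.0642 were not separated by their intervals, proliferating-like cells held 2 transcripts, and enterocyte-like cells held 0, which allows up to 0.0892 per 10000 at a floor of 3 counts over the class.

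**Figure D1:**
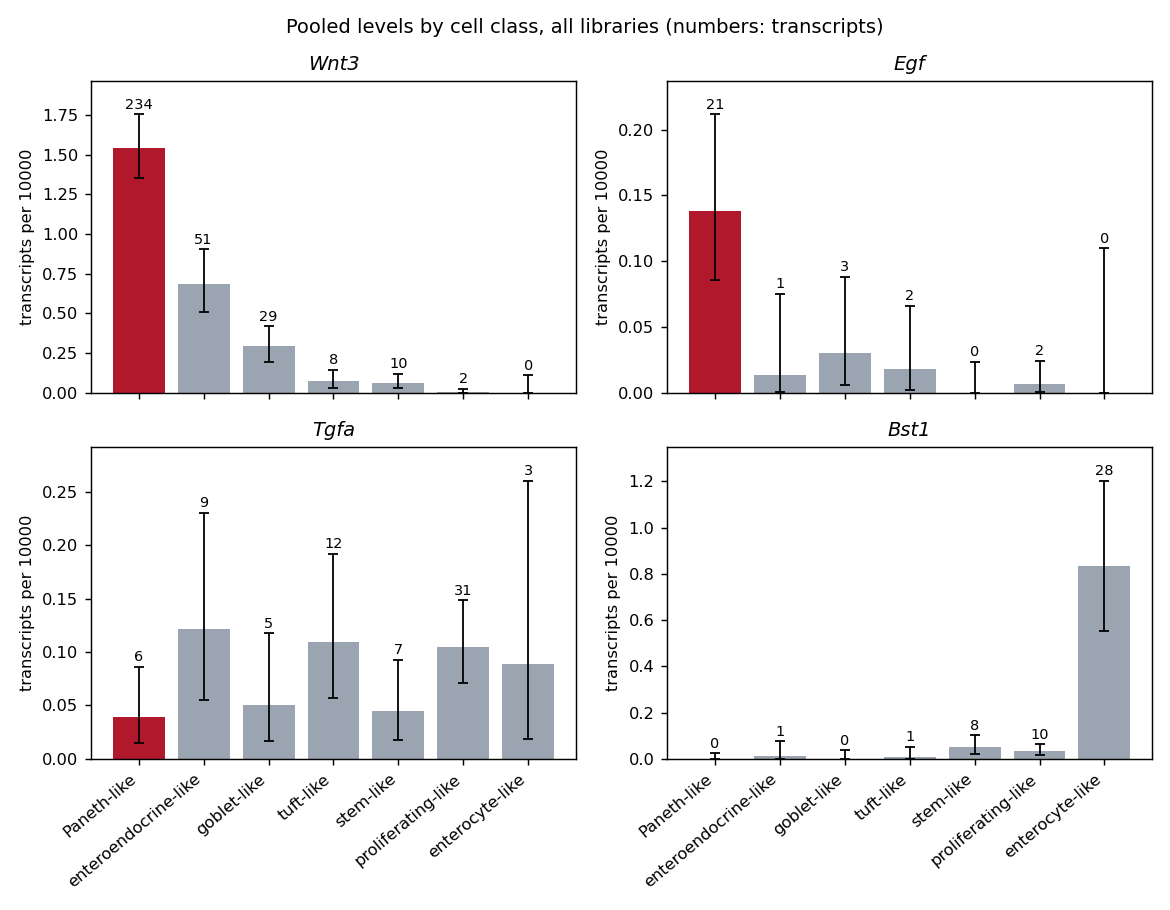
Pooled levels of Wnt3, Egf, Tgfa and Bst1 (transcripts per 10000, linear axes that differ between panels) in 7 cell classes over all libraries; bars are levels, whiskers exact 95% Poisson intervals, and the numbers above them transcripts. Wnt3 and Egf are highest in Paneth-like cells, Bst1 has 28 of its transcripts in enterocyte-like cells and 0 in Paneth-like cells, and the Tgfa intervals overlap. The Egf interval of Paneth-like cells overlaps those of goblet-like and enterocyte-like cells.

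In the Paneth-like cells of single libraries, Wnt3 stood at 1.10, 2.78 and 1.69 per 10000 in 8-week traced CD24+ replicates 1 to 3, at 1.52 and 2.01 in 8-week non-traced CD24+ replicates 1 and 2, and at 1.03, 1.46 and 0.768 in 5-day replicates 2, 3 and 5. Every one of these 8 libraries lay above the remaining cells of the same library. The mean was 1.55 ± 0.636 in Paneth-like cells and 0.146 ± 0.103 in the other cells (SD, n = 8 libraries; exact two-sided sign-flip test, p = 0.00781, the smallest that 8 libraries allow). On counts that the clusters had not used, edgeR's quasi-likelihood test with the library as a block gave a log2 fold change of 4.38 (SE 0.29, adjusted p = 6.56e-13), where 22.3% of the 2913 genes tested were called, 13.7% higher and 8.62% lower. TMM scaling moved this comparison by 0.96 on the log2 scale relative to levels per 10000, on which the log2 ratio of the means was 3.40.

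Within the class, 70 of the 80 Paneth-like cells held a Wnt3 transcript, with a median of 3 and at most 11. Paneth-like cells were also the deepest, at a median of 18018 transcripts against 6537 in enteroendocrine-like cells. After every cell was thinned to 3000 transcripts, Wnt3 was found in 34 of 80 Paneth-like cells (42.5%, 95% exact binomial interval 31.5% to 54.1%), in 21 of 102 enteroendocrine-like cells (20.6%, 13.2% to 29.7%) and in 9 of 83 goblet-like cells (10.8%, 5.08% to 19.6%). At that depth it was found in 0 of 233 proliferating-like cells (0% to 1.57%), of which 2 held a transcript before thinning. These 3 classes were thus in the same order at equal depth as in the levels, and the intervals of Paneth-like and enteroendocrine-like cells did not overlap. The intervals count cells pooled over libraries and leave out the spread between libraries.

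**Figure D2:**
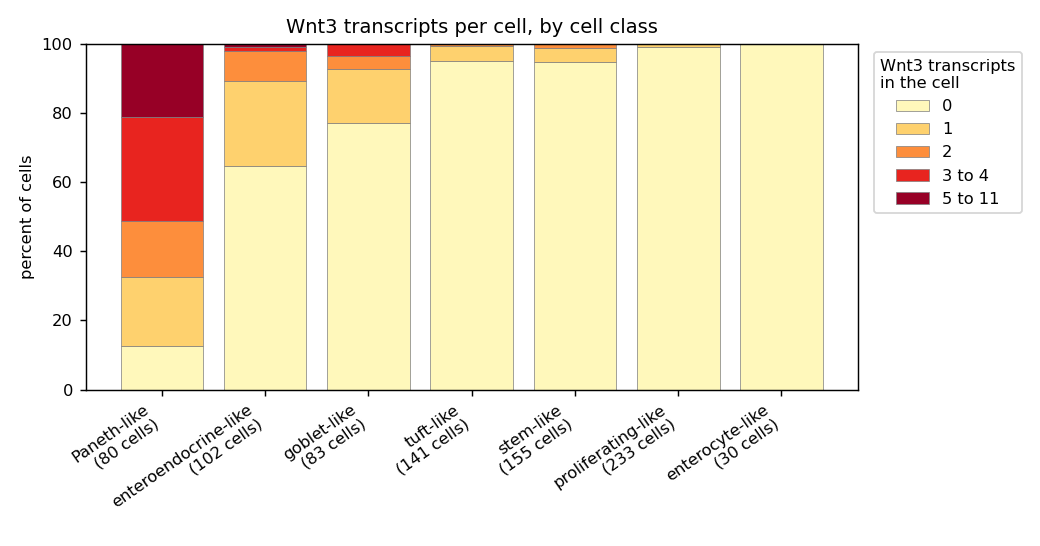
Percent of cells (vertical axis) with 0, 1, 2, 3 to 4 or 5 to 11 Wnt3 transcripts in each of 7 cell classes, without thinning. In Paneth-like cells 87.5% hold at least 1 transcript, in enteroendocrine-like cells 35.3% and in goblet-like cells 22.9%.

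Wnt3 outside the Paneth-like class was spread over all 3 enteroendocrine-like clusters. It stood at 0.684 per 10000 in the cluster led by Gip, which encodes an incretin hormone, at 0.784 in the cluster led by Ghrl, which encodes ghrelin, and at 0.615 in the cluster led by Chgb, which encodes a secretory granule protein. The intervals of these clusters overlap. Enteroendocrine-like cells with a Wnt3 transcript had a median Paneth marker level of 40.1 per 10000 and those without it 42.8. In goblet-like cells the same medians were 154 with a Wnt3 transcript and 52.7 without. All these medians pool libraries. Of the 83 goblet-like cells, 27 came from the 3-week traced CD24+ library, where 4 held Wnt3. Another 5 came from the library labelled 3-week non-traced, where 0 held it. Over all kept cells, Paneth markers stood at 30.5 and 1.90 per 10000 in these libraries and at 568 to 1269 in 8-week CD24+ libraries. Library therefore cannot be told apart from Wnt3 in the goblet-like medians. The part of Paneth markers in the goblet-like Wnt3 level was not tested.

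The comparison of 8-week traced CD24+ with 5-day traced Paneth-like cells asks whether the factor changed with time after labelling. Wnt3 averaged 1.86 ± 0.851 per 10000 in 8-week traced CD24+ libraries and 1.09 ± 0.347 in 5-day libraries (SD, n = 3 each). The lowest 8-week library, replicate 1 at 1.10, lay within the 5-day range, so the groups overlapped. Different Paneth-like clusters held these cells in the 2 groups, as given above. edgeR's quasi-likelihood test gave a log2 fold change of 0.84 (SE 0.36) with an adjusted p of 0.0692, where 46.1% of the 1107 genes tested were called (24.1% higher, 22% lower) and TMM moved the comparison by 0.27. An exact two-sided permutation test on the levels gave p = 0.2, with 0.1 the smallest that 3 against 3 allows. The edgeR call depended on the setting. It passed the threshold of 0.05 without 8-week traced CD24+ replicate 1 (log2 fold change 1.14, adjusted p = 0.0284) and with Paneth-like cells taken by marker share (0.89, adjusted p = 0.0491). It also passed with a replicate block (1.00, adjusted p = 0.034), and in none of the other 12 alternatives. That block kept only libraries whose replicate number occurs in both groups. It thus also left out 8-week traced CD24+ replicate 1, beside 5-day replicate 5. At 3000 transcripts a cell, Wnt3 was found in 27 of 57 8-week CD24+ Paneth-like cells, traced and non-traced together (47.4%, 34% to 61%), and in 5 of 21 5-day cells (23.8%, 8.22% to 47.2%), with overlapping intervals. Both intervals count pooled cells and leave out the spread between libraries.

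The comparison of 8-week traced with 8-week non-traced CD24+ cells holds time and gate equal. Here too, different Paneth-like clusters held most cells of the 2 groups, as given above. Wnt3 averaged 1.86 ± 0.851 (n = 3) in traced and 1.76 ± 0.343 (n = 2) in non-traced Paneth-like cells, and the traced libraries lay on both sides of the non-traced ones. The log2 fold change was 0.21 (SE 0.30, edgeR adjusted p = 0.836), where 1.3% of the 2761 genes tested were called (0.254% higher, 1.05% lower). The column names of a combined table divide these libraries into 2 sets. In the first, traced replicate 1 stood at 1.10 and non-traced replicate 1 at 1.52, and in the second, traced replicates 2 and 3 stood at 2.78 and 1.69 and non-traced replicate 2 at 2.01. With the set as a batch block the log2 fold change was 0.13 (edgeR adjusted p = 0.914), and without traced replicate 2 it was -0.036.

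**Figure D3:**
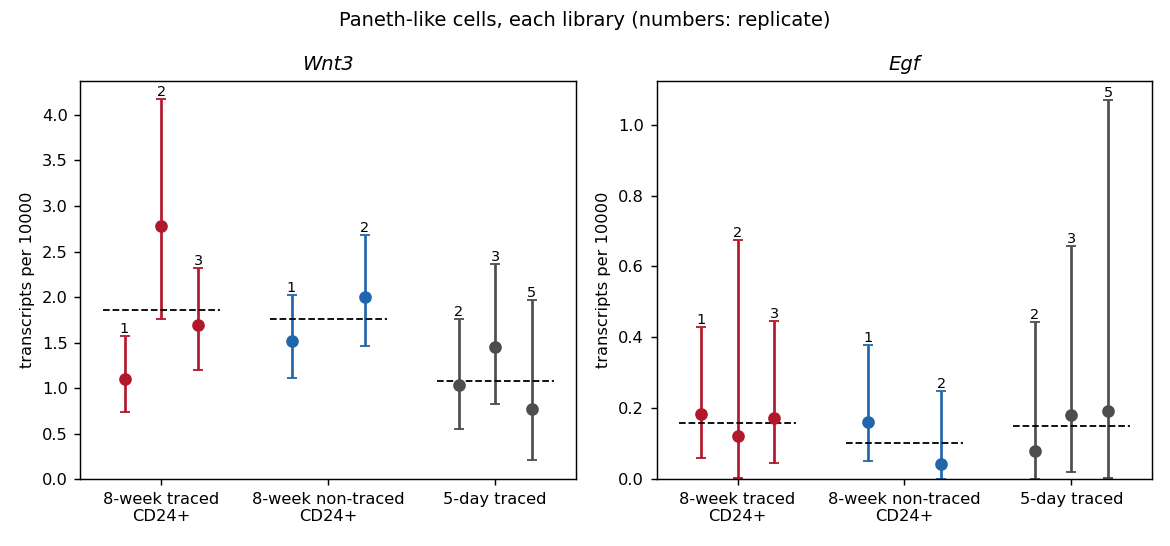
Wnt3 and Egf levels (transcripts per 10000, axes that differ between panels) in the Paneth-like cells of each library with at least 3 such cells; points are libraries numbered by replicate, whiskers exact 95% Poisson intervals, and dashed lines group means. Wnt3 in 8-week traced CD24+ replicate 1 lies within the 5-day range, and the Egf libraries of all groups overlap.

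The 3 other groups held few Paneth-like cells. Both 3-week libraries had 0, and the 8-week traced library without the CD24 gate had 2. Those 2 cells held 9 Wnt3 transcripts, or 2.18 per 10000 (0.996 to 4.14), and were too few for the comparisons. The goblet-like cells of that library held 7 Wnt3 transcripts, or 0.603 per 10000.

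Wnt9b, the chromosomal neighbour of Wnt3 and a Wnt ligand best known from kidney development, had 10 transcripts in kept cells. Of these, 8 were in enteroendocrine-like cells (0.108 per 10000, 0.0466 to 0.212), and 6 of the 8 were in the Gip-led cluster. Paneth-like cells held 1. In enteroendocrine-like cells it stood at 0.231, 0 and 0 in 8-week traced CD24+ replicates 1 to 3, and at 0.123 and 0.140 in 8-week non-traced replicates 1 and 2. The traced libraries lay on both sides of the non-traced ones. Wnt11, which signals mostly without beta-catenin, had 1 transcript in 892 cells, in an unnamed cell. Wnt9b and Wnt11 rest on too few transcripts to show a difference between groups at this depth.

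Egf was counted rarely, and 21 of its 31 transcripts (67.7%) were in Paneth-like cells, at 0.138 per 10000 (0.0857 to 0.212). It stood at 0.184, 0.121 and 0.174 in 8-week traced CD24+ replicates 1 to 3, at 0.162 and 0.0446 in 8-week non-traced replicates 1 and 2, and at 0.0794, 0.182 and 0.192 in 5-day replicates 2, 3 and 5. Each of these rests on 1 to 5 transcripts, and the groups overlapped. Paneth-like cells lay above the other cells of their library in 8 of 8 libraries, with means of 0.142 ± 0.0549 and 0.0115 ± 0.0104 (SD, exact two-sided sign-flip test, p = 0.00781). That call was lost without cells above the 95th percentile of transcripts (difference 0.0761, exact p = 0.0625). Egf was under the filter of the edgeR test. Exact two-sided permutation tests gave p = 0.9 for 8-week traced CD24+ against 5-day cells and p = 0.4 for 8-week traced against non-traced cells, with 0.1 the smallest p either design allows. Of the 18 Paneth-like cells with an Egf transcript, 14 also held Wnt3, which 70 of all 80 Paneth-like cells held. In 6 of the 80 cells neither was found.

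Tgfa, the second EGF receptor ligand among the members, was spread over all classes, with 6 of its 81 transcripts in Paneth-like cells. Its pooled levels were 0.0396 per 10000 (0.0145 to 0.0861) in Paneth-like cells, 0.121 in enteroendocrine-like, 0.11 in tuft-like and 0.105 in proliferating-like cells, with overlapping intervals. Per 10000 transcripts Paneth-like cells lay below the other cells in 8 of 8 libraries, at means of 0.0352 ± 0.0411 and 0.0877 ± 0.0352 (SD, exact two-sided sign-flip test, p = 0.00781). That call was lost when the levels were divided by the TMM factors, an alternative chosen after seeing the data: 4 of 8 libraries were then higher and 4 lower, at means of 0.0488 and 0.0635 (exact p = 0.461). In Paneth-like cells Tgfa stood at 0.0368, 0 and 0 in 8-week traced CD24+ replicates 1 to 3 and at 0.0647 and 0.0891 in 8-week non-traced replicates 1 and 2. These groups did not overlap, but they rest on 1 and 4 transcripts (exact two-sided permutation test, p = 0.1, the smallest possible, and 0.2 with TMM factors). In 5-day replicates 2, 3 and 5 it stood at 0, 0.091 and 0, which overlapped the 8-week traced range (exact permutation p = 1).

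Bst1 had 56 transcripts in kept cells and 0 in the 80 Paneth-like cells, which allows up to 0.0198 per 10000 at a floor of 3 counts and a share of cells with a transcript of up to 3.75%. Of the 56, 28 were in the 30 enterocyte-like cells, at 0.833 per 10000 (0.553 to 1.2), where 14 cells held it. Proliferating-like cells held 10 and stem-like cells 8, all in 5-day libraries. The 8 stem-like cells with Bst1 had a median enterocyte marker level of 35.9 per 10000, and the 147 without it 10.7. The latter pool all libraries, and 71 of all 155 stem-like cells came from 5-day libraries. Library, time, sex and gate therefore cannot be told apart from Bst1 in these medians. The part of enterocyte markers in the level was not tested. Goblet-like cells held 0. Paneth-like cells were lower than the other cells in 4 of 8 libraries and at 0 on both sides in the other 4 (exact two-sided sign-flip test, p = 0.125).

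Across all kept cells, Bst1 stood at 0 in each of the 3 8-week traced CD24+ libraries, at 0.0323 in the 8-week traced library without the CD24 gate (3 transcripts in 1 cell) and at 0.023 in the 3-week traced CD24+ library. It stood at 0.00863 and 0 in the 8-week non-traced libraries and at 0.0271 in the library labelled 3-week non-traced. The 5-day replicates 1 to 5 stood at 0.216, 0.102, 0.196, 0.0707 and 0.148, all above the 8 later libraries. The 8-week CD24+ libraries held none of the 30 enterocyte-like cells and the 5-day libraries held 19. Those 19 cells held 23 of the 50 Bst1 transcripts of the 5-day libraries. Pooled stem-like cells stood at 0.163 per 10000 (8 transcripts) in 5-day libraries and at 0 in 8-week CD24+ libraries. Pooled proliferating-like cells stood at 0.0617 (10 transcripts) and at 0. The part of the makeup of the sort in the difference was not tested. Time cannot be told apart here from sex, nor in the CD24+ libraries from the gate. Of the 8-week libraries, 1 names no CD24 gate, like the 5-day libraries. Its 21 stem-like cells held 0 Bst1 transcripts (0 to 0.191 per 10000) and its 33 proliferating-like cells held 0 (0 to 0.0801). The 5-day levels of these classes lie within those intervals, and the part of the gate was not tested. In the enterocyte-like cells themselves, Bst1 stood at 0.763 per 10000 in the ungated 8-week traced library (3 transcripts in 2 cells), at 0.587 in the 3-week traced library (1 transcript in 1 cell) and at 0.107 in the library labelled 3-week non-traced (1 transcript in 8 cells). It stood at 1.53, 0.48 and 1.63 in 5-day replicates 1, 2 and 3. The first 2 later libraries lay within the range of these 3 and the last below it. Those first 2 did not meet the minimum of 3 cells. The same minimum left out 5-day replicate 5, which held 2 enterocyte-like cells. In sums over all cells, fewer cells of a type and less RNA per cell cannot be told apart.

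The other genes of the pathways were mostly too low to test. Of the 9 other EGF-family ligands listed, 7 were in the files and 0 passed the filter in any comparison; Areg and Hbegf, which encode amphiregulin and heparin-binding EGF, stood at 0.00659 and 0.0527 per 10000 in Paneth-like cells and were highest in enterocyte-like cells, at 2.41 and 1.31. None of the 4 ErbB receptors, the 9 other Wnt ligands in the files (8 with a transcript in kept cells) or the 7 secreted Wnt antagonists in the files could be tested in Paneth-like against other cells. Wnt4 was the most counted of the other Wnt ligands, with 507 transcripts, and stood at 0.185 per 10000 in Paneth-like cells and at 0.49 to 0.922 in the other named classes.

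**Figure D4:**
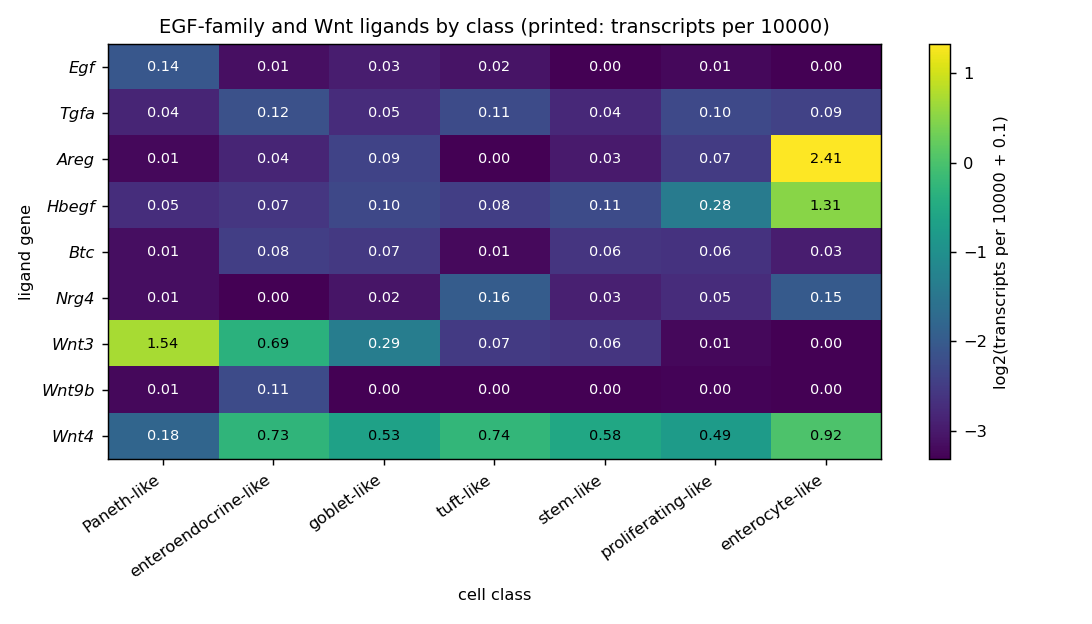
Levels of 9 EGF-family and Wnt ligand genes (rows) in 7 cell classes (columns); the printed numbers are transcripts per 10000 and the colour is log2(level + 0.1), to be read along a row. Wnt3 and Egf are highest in Paneth-like cells, Areg and Hbegf in enterocyte-like cells, and Wnt9b in enteroendocrine-like cells.

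Among Wnt secretion genes, 2 of the 6 in the files could be tested in Paneth-like against other cells, and both were higher in the edgeR fit, where 13.7% of all genes tested were called higher. These were Tmed10 (log2 fold change 1.29, edgeR adjusted p = 3.41e-05) and Tmed2 (1.05, edgeR adjusted p = 5.24e-05), which encode cargo adaptors of early secretory vesicles. Lgr4, an R-spondin receptor, was also higher (1.48, edgeR adjusted p = 2.67e-05), while Lgr5, the other R-spondin receptor tested, did not pass (-0.53, adjusted p = 0.386 with edgeR). These 3 calls depend on the TMM shift of 0.96: on levels per 10000 the log2 ratios of the means were 0.26 for Tmed10, 0.03 for Tmed2 and 0.21 for Lgr4. Tmed2 was then higher in 4 of 8 libraries (3.67 ± 0.838 in Paneth-like and 3.60 ± 0.434 in other cells, SD), Tmed10 in 6 of 8 and Lgr4 in 6 of 8. Between 8-week traced CD24+ and 5-day Paneth-like cells, Tmed10 (1.20), Tmed2 (0.67) and Lgr4 (0.84) were higher in the edgeR fit, with edgeR adjusted p of 0.00419, 0.0347 and 0.0419 and a TMM shift of 0.27. In that comparison 46.1% of all genes tested were called and 24.1% were higher, so these calls are no mark of their lists. No listed gene passed between 8-week traced and non-traced cells.

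For Paneth-like against other cells, the remaining lists gave few testable genes and none passed. Lrig1, a feedback inhibitor of ErbB receptors, was the 1 gene tested of 9 in its list (log2 fold change 0.71, edgeR adjusted p = 0.0578). On levels per 10000 its direction turned, with a log2 ratio of -0.096 and higher values in 4 of 8 libraries. Of 14 Wnt receptors and coreceptors, 2 were tested, and Fzd5 had a log2 fold change of -0.93 (edgeR adjusted p = 0.0561), with 0.265 ± 0.095 per 10000 in Paneth-like and 1.11 ± 0.24 in other cells (SD, n = 8 libraries). On levels per 10000 its log2 ratio was -2.06, with higher values in 0 of 8 libraries. The edgeR value for Fzd5 thus also includes the TMM shift of 0.96. Of 14 NAD and cyclic ADP-ribose genes, 2 were tested, and Cd38, the related enzyme that makes the same product as Bst1, had -0.60 (edgeR adjusted p = 0.279). The 2 tested genes of EGF ligand processing, Adam10 and Cnih, had -0.17 and -0.31, and none of the 5 Notch ligands was tested. The median over all genes tested was -0.05.

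Genes with a pattern most like each member were ranked by Pearson's r over 61 sums of a class in a library, among 11137 genes; sums share libraries and depth, so this is a description. For Wnt3 they were Bambi (r = 0.82), which encodes a membrane inhibitor of BMP signalling, Rnase4, Vldlr, Ang and 5330417C22Rik. For Egf they were Gm15292 (0.79), Gm6696, Gm7861, Gm15299 and Defa23, a Paneth cell defensin. For Bst1 they were Treh (0.91), which encodes the brush border enzyme trehalase, Pdzk1, Cyp2b10, Dpep1 and Cyp2c66. For Tgfa the highest was Gcnt2 at 0.52, followed by Wdr44, Dyrk1a, Slc6a8 and Tyw5.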

How the data were processed

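Single cells of 13 libraries were measured by CEL-seq. The authors deposited expected counts, one value for each gene in each cell, which the values show to be corrected for collisions among 256 molecular barcodes and not scaled (145 values were saturated). Per the submitters' processing notes, BWA 0.6.2-r126 and mm10 were used; gene models are not given in the sources used here. A combined table gave no value; its column names mark 2 sets of 8-week libraries, assigned to libraries because their values were equal within 0.001 to those of 1 library each, and 96 of its columns were not used.

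Counts were rounded, and each was split binomially (probability 0.5) into a clustering part and a held-out part. The clustering part, without the 6 members, made the clusters (leidenalg 0.10.2, 2000 variable genes, 30 components, 10 neighbours, resolution 1). Each gene's library mean was subtracted first. Clusters were named by markers raised over the other cells of the same library, and no doublet detection was run. Sums over cells were tested with edgeR 4.0.16 (quasi-likelihood, TMM, filterByExpr, Benjamini-Hochberg threshold 0.05) in R 4.3.3, against the held-out part for classes; libraries needed 3 cells. DESeq2 1.42.0 was an alternative. Levels are transcripts per 10000, with 95% Poisson intervals. The edgeR fit was also run on simulated data. Members and lists were chosen with earlier results of these data known. The text names the members, up to 3 called genes a list, and 5 genes most like each member with at least 30 transcripts. Replicate numbers were not taken to pair libraries: residual correlations of equal numbers were 0.0486 and -0.0193 (8-week traced against 5-day) and 0.0984 and 0.0947 (traced against non-traced).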

Additional observations from a re-analysis of the deposited data

Results flagged for a closer look

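Among 18 sets of 4 or 5 libraries in which a member was counted, 8 had a library far from the others by Dixon's test. Only the 5-day group has enough libraries for such a set, so no other group could be flagged. In all 8 a single library held every transcript, so the gap fills the whole range whatever the count. The usual rate of about 1 in 20 by chance does not apply to such sets, and most rest on 1 or 2 transcripts. In 5-day replicate 4 these are, in unnamed cells, Egf at 0.0439 per 10000 (2 transcripts), Tgfa at 0.154 (7) and Wnt3 at 0.0879 (4); that library gave 85.4% of the larger unnamed cluster. In replicate 3 they are Egf at 0.0325 in proliferating-like cells (1) and Wnt3 at 0.287 in stem-like cells (2). In replicate 2 it is Tgfa at 0.198 in goblet-like cells (1). In replicate 1 it is Wnt9b, at 0.0252 in proliferating-like cells and 0.0135 over all kept cells (the same 1 transcript).

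Barcodes under 3000 transcripts, which no comparison used, held 17 Bst1 transcripts in 13 of 356 barcodes (0.573 per 10000), of which 10 came from 5-day replicate 2. They also held 5 Wnt3 transcripts in 3 barcodes (0.168 per 10000).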

How the results depend on the processing

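Paneth-like against other cells gave 651 calls, and 1707 with no filter on low counts, 1374 on all counts and 169 in the 5-day libraries only; leaving out a library gave 493 to 707. For 8-week traced CD24+ against 5-day Paneth-like cells there were 510 calls, 332 with DESeq2 and 394 to 568 with a library left out. For 8-week traced against non-traced cells there were 36, against 77 with no filter, 17 by marker share, 77 with the set of libraries as a batch block and 5 to 61 with a library left out (5 without traced replicate 1, 61 without traced replicate 2, 11 without traced replicate 3, 60 without non-traced replicate 2). The replicate block gave 18 calls there and 487 for 8-week traced against 5-day cells. It kept only libraries whose replicate number occurs in both groups, and the numbers pair no libraries by their labels.

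Wnt3 stayed higher in Paneth-like cells in all 19 alternatives that tested it (log2 fold change 4.09 to 4.47), and was under the filter in the 5-day libraries only. Between 8-week traced and non-traced cells, leaving out a library gave Wnt3 differences in level of -0.364 (traced replicate 2 left out) to 0.475, with -0.146 when non-traced replicate 1 was left out, and log2 fold changes of -0.0361 to 0.474. The Egf difference between 8-week traced and 5-day cells ranged from -0.0274 (5-day replicate 2 left out) to 0.0289, with -0.0037 when 8-week traced replicate 1 was left out; between traced and non-traced cells it turned to -0.0339 without the deepest cells, and ranged from -0.00223 (non-traced replicate 2 left out) to 0.115. Without the deepest cells, Egf in Paneth-like against other cells had an exact p of 0.0625. The Tgfa difference between 8-week traced and 5-day cells ranged from -0.0332 to 0.0123 (5-day replicate 3 left out). The Wnt9b difference between Paneth-like and other cells turned to 0.000731 with TMM factors. The cause was not tested. Counts of at most 5 transcripts a library in Paneth-like cells limit every Egf, Tgfa and Wnt9b comparison.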
